A study of Homo sapiens with 8 samples.

Results

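The regions described here are 1562 stretches of chromatin in which a peak of histone H3 lysine 23 succinylation (H3K23su) was called in both libraries of 5-fluorouracil (5-FU)-resistant HCT15 cells and in neither library of the parental cells, with no peak of H3 lysine 27 acetylation (H3K27ac) in any library. They were found by merging overlapping or touching peaks of the 4 H3K23su lists into 122500 regions and keeping those present in both HCT15-FR lists and no HCT15-Pa list, touched by none of the 4 H3K27ac lists, with a midpoint over 1 kb from every protein-coding transcription start site (TSS) of GENCODE on hg19. The members were thus chosen by the presence of called peaks in these 8 lists, and their number, scores and widths are a description without a test. Of all H3K23su regions, 9735 were FR-only (7.95%), and of these 1562 (16.0%) were distal and free of H3K27ac.

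CUT&Tag, in which an antibody directs a transposase to chromatin, was run on HCT15, an established human colorectal adenocarcinoma cell line. HCT15-Pa is the parental line, labelled as treated with the solvent DMSO, and HCT15-FR is a single derived line that resists 5-FU, a pyrimidine analog that blocks thymidylate synthase, labelled as treated with 20 μg/ml 5-FU and, per the study's methods, kept without the drug for a short time before experiments. Each line gave 2 H3K23su and 2 H3K27ac libraries from about 50,000 cells each, so the lines compared differ both in drug history and in descent. Peaks lay within 1 kb of a TSS in all 4 libraries for 8 of 10 epithelial and intestinal marker genes with H3K27ac and for 7 of 10 with H3K23su, while 4 of 8 markers of blood, fibroblast, endothelial and neural cells had no H3K27ac peak there in any library and 1, COL1A1, had one in all 4.

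Lysine succinylation adds a negatively charged succinyl group, taken from succinyl-CoA, to a residue that is otherwise positively charged, and on histones it is found at active genes beside acetylation. H3K27ac, placed by p300 and CBP, is the usual mark of active enhancers and promoters. Distal elements that carry one acylation without the other are therefore of interest. In epithelial cells, active enhancers are often bound by AP-1 (FOS and JUN proteins), FOX and GATA factors. Whether these factors bind elements with H3K23su alone was not tested here.

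Members with some of the strongest calls and the strongest members with an AP-1, FOX, GATA or CTCF motif core are shown first, since they are the clearest examples of the set and of the sequence features described later. Each is the plus strand of hg19, 200 bases around the midpoint for CYTH1, VPS4B and POLR2J2 and 120 bases around the core for the others, which can run past the edge of the called region, and capitals mark matches to any of the 9 searched motif cores in the 200-base stretches and the named core alone in the 120-base stretches. None of these stretches touches an annotated exon. In the labels, strongest refers to the rank of the member's peaks and not to the core, which was matched by its letters alone.
CYTH1 intron, chr17:76715102-76715301: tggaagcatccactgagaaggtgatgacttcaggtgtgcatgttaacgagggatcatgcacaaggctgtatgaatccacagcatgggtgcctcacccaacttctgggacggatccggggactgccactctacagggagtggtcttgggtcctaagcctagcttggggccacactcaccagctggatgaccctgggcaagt
VPS4B intron, chr18:61070058-61070257: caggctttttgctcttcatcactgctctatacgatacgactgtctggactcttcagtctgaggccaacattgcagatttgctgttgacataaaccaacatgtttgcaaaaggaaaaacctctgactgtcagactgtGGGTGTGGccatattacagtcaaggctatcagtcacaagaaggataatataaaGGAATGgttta
POLR2J2 intron, with the strongest AP-1 core, chr7:102307962-102308161: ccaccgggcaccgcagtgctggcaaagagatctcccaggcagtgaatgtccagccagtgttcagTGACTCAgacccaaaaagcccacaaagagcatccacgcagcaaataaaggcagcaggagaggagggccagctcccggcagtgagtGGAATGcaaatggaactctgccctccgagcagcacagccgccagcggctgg
SH3RF2 intron, with the strongest FOX core, chr5:145404865-145404984: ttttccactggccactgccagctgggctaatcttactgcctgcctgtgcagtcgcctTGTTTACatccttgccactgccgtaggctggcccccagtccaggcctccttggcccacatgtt
Intergenic, nearest TSS PLEKHA5, with the strongest GATA core, chr12:19163098-19163217: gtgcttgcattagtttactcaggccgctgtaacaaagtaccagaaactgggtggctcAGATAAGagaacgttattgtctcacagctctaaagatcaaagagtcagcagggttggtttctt
CDK13 intron, with the strongest CTCF core, chr7:40092213-40092332: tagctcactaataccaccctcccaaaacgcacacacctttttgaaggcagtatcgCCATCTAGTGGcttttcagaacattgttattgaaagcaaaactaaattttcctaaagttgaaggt
The VPS4B stretch holds a KLF and a TEAD core, the POLR2J2 stretch an AP-1 and a TEAD core, and the CYTH1 stretch holds none of the 9 cores. The GATA core near PLEKHA5 lies within 200 bp of the member's midpoint but outside the called region, which starts at 19163176.

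The members were weak peaks in their own lists. In HCT15-FR replicate 1 their peaks had a median authors' score (the −log10 of the MACS2 P value) of 3.96, with a lowest of 3.01 and a highest of 9.36. In replicate 2 the median was 3.95, the lowest 3.02 and the highest 7.51. Ranked within the list, the median member stood at the 29.2 percentile in replicate 1 and at the 28.3 percentile in replicate 2, and 342 and 323 members were in the stronger 50% of these lists. The score of a member in one HCT15-FR library was only loosely related to that in the other, with a Pearson r of 0.164 and a Spearman rho of 0.179 across 1562 regions that share their libraries. Gains of both marks, meaning distal FR-only H3K23su regions that overlap an FR-only H3K27ac region, had median percentiles of 49.7 and 50.3. Members were 436 bp wide at the median (146 to 1552 bp) and lay 14444.5 bp from the nearest TSS at the median.

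**Figure D1:**
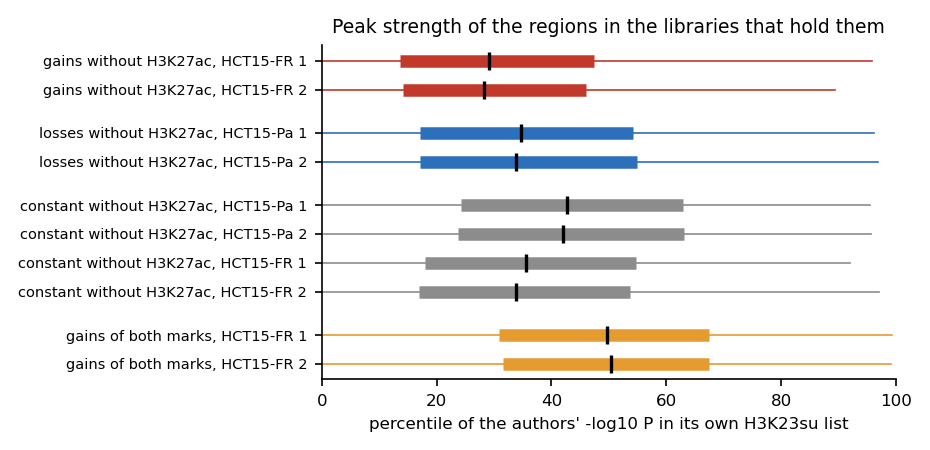
Percentile of the authors' −log10 P within its own H3K23su list for 4 sets of distal regions, in each library that holds them (thin line, lowest to highest; bar, quartiles; tick, median). The members sit lowest, with medians of 29.2 and 28.3, against 49.7 and 50.3 for gains of both marks.

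Most distal H3K23su calls without H3K27ac were seen in a single list. Of 40873 such regions, 32641 (79.9%) were in 1 list, 6030 in 2, 1644 in 3 and 558 in all 4. The 6030 comprised the 1562 members, 1738 regions in both HCT15-Pa lists only, termed losses, and 2730 in 1 list of each line. Of the 8627 regions found in HCT15-FR replicate 1 and in no HCT15-Pa list, 18.1% were also in replicate 2, and the corresponding share of the 8517 regions of replicate 2 was 18.3%. For HCT15-Pa these shares were 15.5% and 16.0%. Without the requirement for the second HCT15-FR library, the set would hold 8821 regions (replicate 1 left out) or 8913 (replicate 2 left out).

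FR-only calls were less frequent where H3K27ac was missing, as were Pa-only calls and regions present in all 4 lists. FR-only calls made up 3.82% of the distal regions without H3K27ac and 11.8% of the 60105 distal regions with it, while losses made up 4.25% of the former. Of the 60105, 3703 were Pa-only and 17162 were in all 4 lists, against 1738 and 558 of the 40873 without H3K27ac. Of the 6143 Pa-only regions, 28.3% were distal and free of H3K27ac, against 16.0% of the FR-only regions. Regions present in all 4 lists were also seldom of this kind, with 558 of 29230 (1.91%). The members of the set and the losses were thus similar in number, and the losses serve as the mirror set in what follows.

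The limits of the rule fell among very similar regions. Just inside the TSS limit were members 1002 bp from DPYSL2, 1011 bp from ADAMTS6 and 1016 bp from MRTFB. Just outside it were FR-only regions 999 bp from JADE3, 991 bp from TRAPPC10 and 990 bp from CENPF. At the H3K27ac limit, members nearest RASL11B, CARMIL1 and AHI1 were separated from an H3K27ac peak by 1, 2 and 2 bp, and regions nearest CDIN1, PAFAH1B1 and ALOX5AP were left out for overlaps of 2, 2 and 3 bp. Of the members, 45 lay under 100 bp and 359 under 1 kb from an H3K27ac peak.

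The 10 strongest members were all intronic. The strongest, in CYTH1 (cytohesin-1, an exchange factor for ARF GTPases), scored 6.39 and 6.57 in HCT15-FR replicates 1 and 2 and lay 277 bp from an H3K27ac region present in all 4 libraries. That in VPS4B, an ATPase of the ESCRT machinery, scored 6.25 and 6.34, and its nearest H3K27ac region, 7841 bp away, was FR-only. That in BTRC, the F-box protein that directs phosphorylated beta-catenin to degradation, scored 5.84 and 6.58.

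The other 7 scored between 5.36 and 7.12. The member in POLR2J2, one of several near-identical copies of an RNA polymerase II subunit gene, scored 5.75 and 5.92, and its placement rests on the authors' filter for uniquely mapped reads. Those in SGMS2 (a sphingomyelin synthase), CAPZB (an actin capping protein) and CDC42BPA (a kinase activated by CDC42) scored 5.77 and 5.54, 5.47 and 5.72, and 6.11 and 5.47. The member nearest SSBP2 lay 69090 bp from that gene's TSS, in an intron of a noncoding gene, and scored 5.44 and 5.62. Members in NDC80, a kinetochore protein, and C12orf75 scored 5.40 and 6.36, and 5.36 and 7.12. Both libraries placed all 10 above the median score of their lists.

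Members were mostly intronic. Their midpoints lay in introns for 1256 of 1562 (80.4%, exact 95% binomial interval 78.4 to 82.4), in exons for 5.95% and between genes for 13.6%. Introns took 74.4% of the losses (72.3 to 76.4) and 67.4% of the gains of both marks (65.7 to 69.0), but 87.1% of the 558 regions in all 4 lists without H3K27ac (84.0 to 89.8). Counted over protein-coding genes alone, the members' share was 73.2% and that of the losses 66.7%. Such intervals cover counting error only, since regions of one library are not replicates. By distance, 948 members (60.7%) were over 10 kb and 143 over 100 kb from a protein-coding TSS, and 54 (3.46%) lay within 1 kb of a noncoding one.

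The genes that held members were long and had marked promoters in both lines. Members lay in the bodies of 1099 of 20163 protein-coding genes (5.45%), 146 of them with 2 or more, and the median length of these genes was 123 kb, against 112 kb for genes that held losses, 60.7 kb for genes that held any distal H3K23su region without H3K27ac and 27.2 kb for all genes. The TSS had H3K27ac in all 4 libraries in 91.1% of the host genes (89.2 to 92.7), in 88.9% of the genes that held losses (86.9 to 90.7), in 81.7% of those that held gains of both marks (79.6 to 83.6) and in 62.1% of all genes. An FR-only H3K27ac call at the TSS was found in 8 host genes (0.728%) and in 1.41% of all genes, and an FR-only H3K23su call in 22 host genes (2.00%) and in 1.66% of all genes. Members were spread along the gene, with 27.9%, 28.1%, 24.0% and 20.0% in successive stretches of 25% of the gene from the 5′ end.

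Some genes held several members. EIF4G3, a scaffold of translation initiation, held 5 within 371 kb, beside 1 loss and 24 distal regions without H3K27ac in all. EEPD1, a nuclease-related protein of replication fork repair, held 4 within 148 kb and no loss. PCDH7, a protocadherin, held 4 of its 7 distal regions without H3K27ac and no loss. A further 30 genes held 3 each, and the 7 of them with the most members per 100 kb were ZNF717, a zinc finger gene of a family with many close relatives, PSMD1, a subunit of the proteasome, FAT1, an atypical cadherin, PPP6R3, a regulatory subunit of protein phosphatase 6, PELI2, a Pellino ubiquitin ligase, MEF2C, a MADS-box transcription factor, and GAB2, an adaptor of receptor tyrosine kinases. Of these 7, PPP6R3 held 1 loss and the others none. The genes were picked for their members, and losses made up only 4.25% of all distal regions without H3K27ac, so few were to be expected. All 10 genes had H3K27ac at the TSS in all 4 libraries, and PELI2 was the one with an FR-only H3K23su call there.

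**Figure D2:**
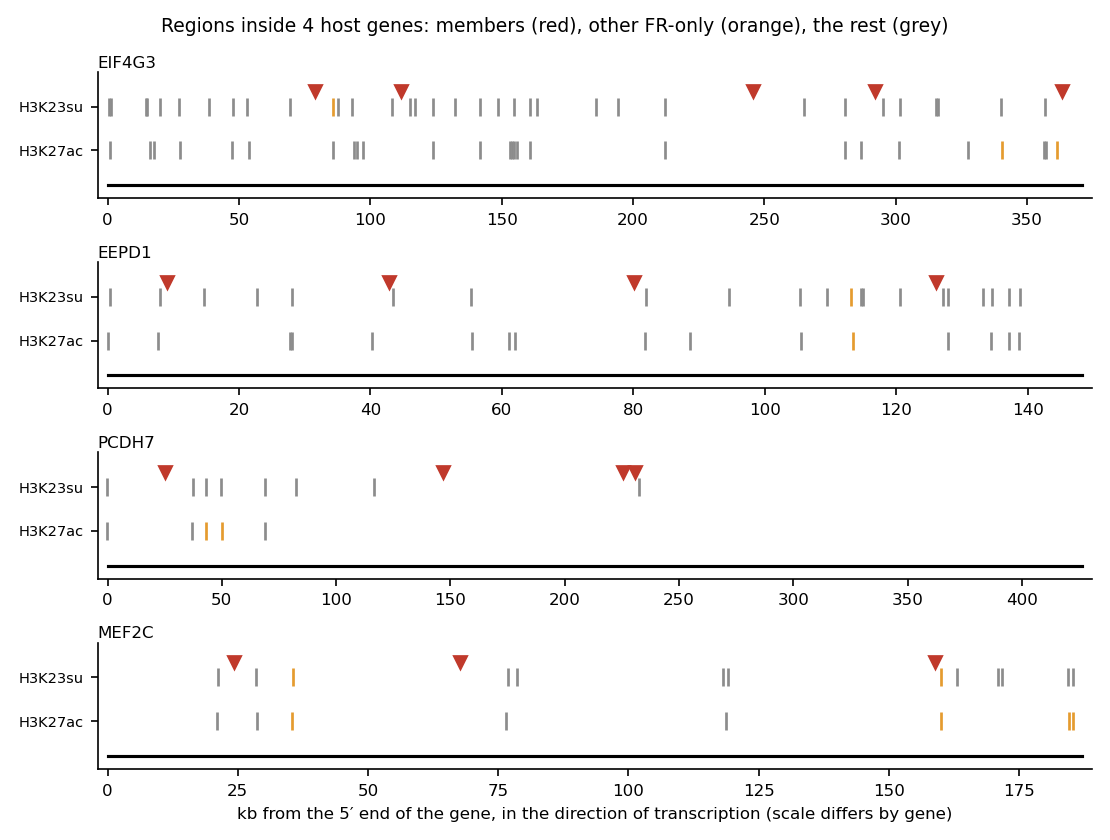
Regions along EIF4G3, EEPD1, PCDH7 and MEF2C in kb from the 5′ end, with H3K23su above and H3K27ac below (red triangles, members; orange, other FR-only regions; grey, all other regions). The 4 members of PCDH7 lie between 25 and 232 kb while its 5 H3K27ac regions lie in the first 70 kb.

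The members of PCDH7 lay far from any acetylated region. Their scores in HCT15-FR replicates 1 and 2 were 4.26 and 5.76, 4.14 and 3.60, 3.58 and 3.59, and 3.41 and 4.54, and the gaps to the nearest H3K27ac region were 161318, 11022, 156166 and 77416 bp in the same order. Over the whole set the median gap was 3971.5 bp, with an upper quartile of 9836 bp and a highest of 540107 bp. The losses had a median gap of 4680 bp.

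Members also occurred in runs. Joined where their edges lay within 50 kb, 1358 members stood alone, 89 runs had 2, 7 had 3 and 1 had 5. The run of 5 spanned 153 kb at EEPD1, with scores of 3.21 to 4.55 in replicate 1 and 3.20 to 4.52 in replicate 2, and where the stretch held 21 H3K23su regions, 6 of them FR-only and 0 Pa-only. Runs of 3 lay at ZNF717 (22.7 kb), PELI2 (23.3 kb), GAB2 (48.4 kb), SUCLG2 (54.3 kb), TMCC1 (55.1 kb), CDYL (59.8 kb) and SLC12A2 (68.7 kb). SUCLG2 encodes a subunit of the succinyl-CoA ligase that forms GDP or GTP, CDYL a chromodomain protein, and SLC12A2 a sodium, potassium and chloride transporter. The most compact pairs were in KCNMA1 (0.921 kb) and VPS26A (1.05 kb). Of these 10 runs, the one at TMCC1 held 1 Pa-only H3K23su region and the others none. The runs were picked for their members, and no runs of losses are given for comparison. Of all 122500 H3K23su regions 6143 were Pa-only, and the runs in KCNMA1 and VPS26A held 2 H3K23su regions each. Few Pa-only regions were thus to be expected.

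Although no H3K27ac peak touched a member, the nearest one was more often FR-only than for the losses. Of the members, 1178 (75.4%) had an H3K27ac region within 10 kb. It was FR-only for 168 (14.3%, interval 12.3 to 16.4), Pa-only for 26 (2.21%, 1.45 to 3.22) and in all 4 libraries for 331 (28.1%). For the losses the nearest was FR-only in 6.54% (5.22 to 8.08) and Pa-only in 5.07% (3.91 to 6.45). For the regions in all 4 lists without H3K27ac these shares were 10.0% (7.17 to 13.5, overlapping the members' interval) and 1.84%, and for all distal regions without H3K27ac 9.65% and 3.57%. Among all 133786 H3K27ac regions, 9.08% were FR-only and 4.53% Pa-only. When the rule was applied to the stronger 50% of each list, the nearest region was FR-only for 10.5% and Pa-only for 3.26% of 429 regions, and only 104 of the 802 regions so found were members. The share with another FR-only H3K23su region within 10 kb was 16.3% (14.5 to 18.2) for members, 12.9% (11.4 to 14.6) for losses and 13.8% for all distal regions without H3K27ac.

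The windows around the members held less G and C than those around the losses. Within 200 bp of the midpoint the median GC content was 46.4%, against 49.6% for the losses, 48.4% for all distal regions without H3K27ac and 44.9% for gains of both marks. Windows below 45% GC made up 41.3% of the members and 23.02% of the losses. A search for 9 motif cores was therefore also made within windows of 35 to 45% GC.

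Matches to the cores were counted on both strands within 200 bp of the midpoint, a window that can reach past the edges of a narrow region, as a description of the letters present and not of binding. The AP-1 core was TGACTCA or its variant TGAGTCA. The FOX core was GTAAACA, and the GATA core AGATAAG. The TEAD core was GGAATG, the RUNX core AACCACA and the LEF/TCF core CTTTGAT. The KLF core was GGGCGTGG or its variant GGGTGTGG, the HNF1 core was GTTAATNATTAA, and the CTCF core was read, like the others, from the HOMER consensus sequences that the study lists. No core contains another, and 656 members held none of the 9.

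AP-1 and FOX cores were more frequent in members than in losses. An AP-1 core was present in 210 members (13.4%, interval 11.8 to 15.2), in 9.26% of the losses (7.94 to 10.7), in 24.97% of the gains of both marks (23.5 to 26.5) and in 13.0% of all H3K23su regions. A FOX core was present in 162 members (10.4%, 8.90 to 12.0), in 5.75% of the losses (4.71 to 6.95), in 15.0% of the gains of both marks and in 6.73% of all regions. In windows of 35 to 45% GC the shares were 16.2% in members against 9.37% in losses for AP-1, and 12.8% against 6.84% for FOX. In the same GC range all H3K23su regions held an AP-1 core in 17.6% and a FOX core in 11.01%, which is above the members' share for AP-1 and below it for FOX. Both shares of all regions lie within the members' intervals in this GC range (AP-1 13.4 to 19.4, FOX 10.3 to 15.7). Within 100 bp of the midpoint an AP-1 core was in 6.98% of members (5.76 to 8.36) and 5.29% of losses (4.29 to 6.45). These intervals overlap, and the share of all H3K23su regions was 7.12%. For FOX the 100 bp shares were 5.38% (4.31 to 6.61) and 3.05% (2.29 to 3.97), against 3.53% of all regions. Within 200 bp, either core occurred in 349 members and both in 23.

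For the other cores the intervals of members and losses overlapped within 200 bp as well. GATA cores were in 6.72% of members and 5.70% of losses, TEAD cores in 24.1% and 23.02%, RUNX cores in 8.19% and 6.73%, KLF cores in 8.58% and 8.92%, and LEF/TCF cores in 6.27% and 5.12%. The corresponding shares of all H3K23su regions were 5.27%, 22.2%, 7.51%, 10.1% and 5.07%. HNF1 and CTCF cores were each in 2 members (0.128%, interval 0.0155 to 0.462), and the CTCF core was in 0.699% of all regions. It was in 0.345% of the losses and 0.321% of all distal regions without H3K27ac, both within the members' interval.

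AP-1 and FOX cores were concentrated at the midpoints of the members. The density of AP-1 cores was 0.363 per kb within 200 bp of the midpoint and 0.159 per kb at 1 to 2 kb, a ratio of 2.28, compared with 1.48 for the losses and 3.85 for gains of both marks. For FOX cores the ratio was 1.86 in members, 0.973 in losses and 2.69 in gains of both marks. In regions in all 4 lists without H3K27ac the ratios were 1.40 for AP-1 and 1.38 for FOX. GATA and KLF cores gave lower ratios of 1.20 and 1.13 in members, and of 1.11 and 1.16 in losses.

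**Figure D3:**
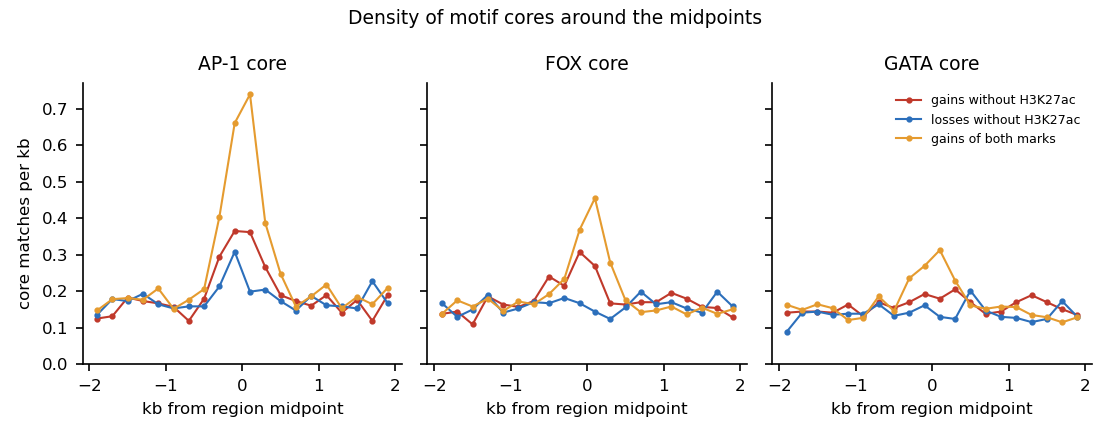
Matches to the AP-1, FOX and GATA cores per kb, in bins of 200 bp, by distance in kb from the region midpoint, for members (red), losses (blue) and gains of both marks (orange). AP-1 and FOX cores peak at the members' midpoints, lower than in gains of both marks, and the losses show no FOX peak.

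The cores were not limited to members beside acetylated regions. AP-1 cores were in 8.64% of the members under 1 kb from an H3K27ac region (5.94 to 12.0), in 14.7% of those at 1 to 10 kb (12.3 to 17.3) and in 15.4% of the 384 members farther away (11.9 to 19.4). For FOX cores these shares were 8.08%, 10.1% and 13.0%. Where the nearest H3K27ac region within 10 kb was FR-only, 12.5% of members held an AP-1 core, and where it was present in all 4 libraries, 12.4% did.

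**Figure D4:**
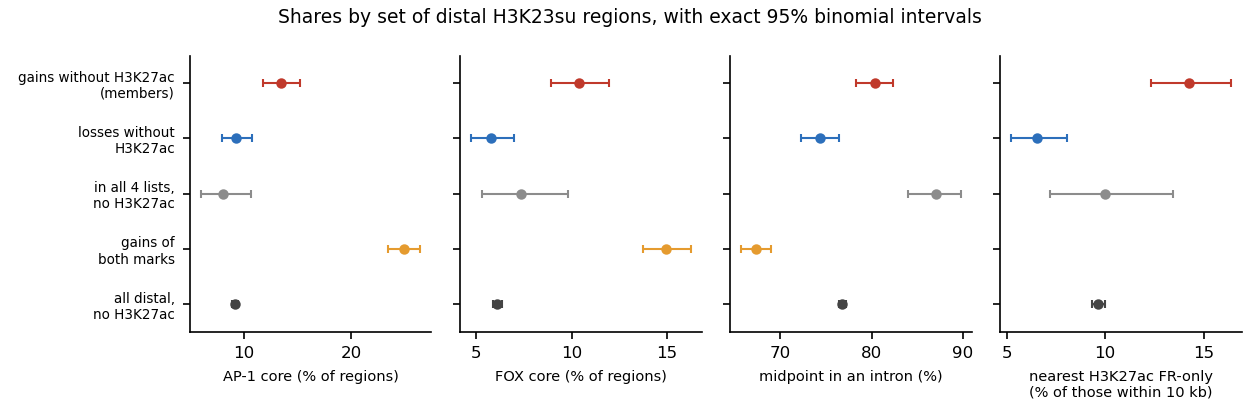
Share of regions with an AP-1 core, with a FOX core, with a midpoint in an intron and with an FR-only nearest H3K27ac region (points, with exact 95% binomial intervals), by set of distal H3K23su regions. Members lie above losses in all 4 panels, and gains of both marks, absent from the last panel, lie above members for both cores and below them for introns.

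Since regions are not replicates, the lines were also compared over libraries, with every distal H3K23su peak without H3K27ac in each list. The number of such peaks was 15197 and 14844 in HCT15-Pa replicates 1 and 2 and 12518 and 12395 in HCT15-FR replicates 1 and 2, of which 1568 and 1572 lay in members. As a share of the list, this was 22.98% and 22.7% in HCT15-Pa and 18.3% and 18.3% in HCT15-FR. Both HCT15-FR libraries were below both HCT15-Pa libraries. From HCT15-Pa to HCT15-FR the mean number fell by 2564 peaks and the mean share fell by 4.55 percentage points, more than the spread between libraries (SD of 250 peaks in HCT15-Pa and 87.0 in HCT15-FR, n = 2 each). The HCT15-FR lists thus held fewer distal H3K23su peaks without H3K27ac in all, beside the gains described here. Absence of H3K27ac was judged against the H3K27ac lists of both lines together, which held 12147 FR-only and 6066 Pa-only regions. The members numbered 2139 or 2231 without an HCT15-FR H3K27ac library, and 1638 or 1651 without an HCT15-Pa one. The drop was not recomputed in this way, so its dependence on the H3K27ac lists of each line was not tested.

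The sequence features differed between the libraries in the same direction as between members and losses. AP-1 cores were in 8.26% and 8.49% of these peaks in HCT15-Pa and 10.4% and 10.7% in HCT15-FR, and their centre over flank ratio was 1.36 and 1.39 against 1.69 and 1.74. FOX cores were in 5.61% and 5.40% against 7.19% and 7.16%, with ratios of 0.979 and 0.938 against 1.22 and 1.21. GATA cores were in 5.15% and 4.94% against 5.82% and 5.95%. Introns held 76.0% and 76.0% against 79.7% and 80.0%, and the mean GC content was 49.6% and 49.6% against 48.4% and 48.3%. The groups did not overlap in any of the 9 measures, and a two-sided exact permutation test gave p = 0.333 for each (0.333 after Benjamini-Hochberg adjustment), the smallest value that 2 libraries against 2 allow. The members are part of these HCT15-FR peaks, so the comparison is not independent of them.

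**Figure D5:**
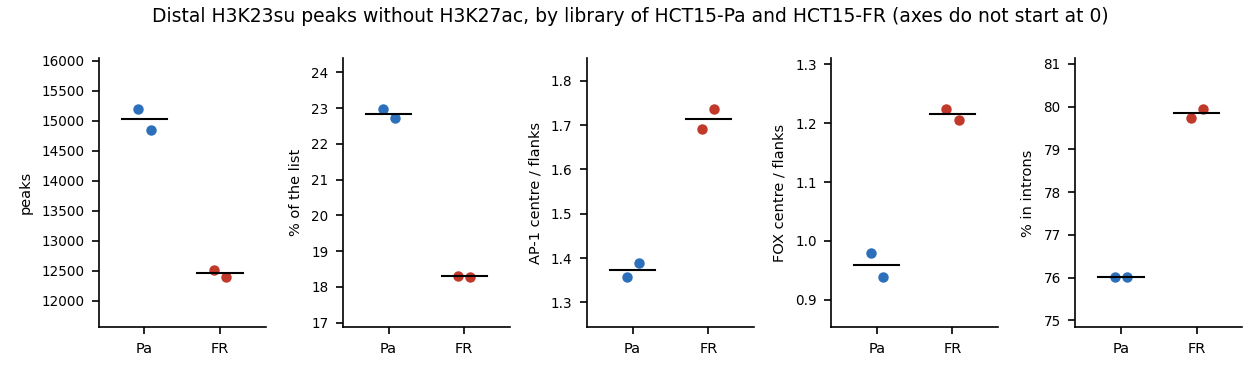
Values of the 4 H3K23su libraries for distal peaks without H3K27ac (points, libraries; lines, means of 2): number of peaks, percent of the list, centre over flank ratio of AP-1 and FOX cores, and percent in introns. HCT15-FR lies below HCT15-Pa in the first 2 panels and above it in the other 3, with no overlap.

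Genes of the fixed lists were assigned a member when their TSS was the nearest protein-coding one within 100 kb. Of 20136 protein-coding genes by name, 1235 (6.13%) had a member, and 52.1% had any distal H3K23su region without H3K27ac. None of 29 genes of 5-FU and pyrimidine metabolism had a member, a count of 0 that, with 3 counts as its limit, allows a share of up to 10.3%, although 17 of them had such a region, and 1 had a loss.

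Ligands, receptors and mediators of TGF-beta and BMP signalling had the highest share of the 11 lists, with 9 of 36 genes (25%) against 4 with a loss. Some distal region without H3K27ac was present for 83.3% of this list. Over all protein-coding genes these shares were 6.13% with a member and 52.1% with some such region. The genes were the ligands TGFB2, BMP4, BMP7 and INHBB, the receptors TGFBR3, ACVR2A and BMPR1A, the mediator SMAD3 and the corepressor SKI, each with 1 member. The count fell to 3 within 10 kb of the TSS and to 2 with the stronger 50% of each list. Their scores were low to moderate, from 3.48 for INHBB in replicate 2 to 5.36 for ACVR2A in replicate 1. The member assigned to TGFB2 lay in an exon of RRP15.

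Lists of FOX and GATA, AP-1 and KLF factor genes were also counted. Some distal region without H3K27ac was present for 69.2%, 57.1% and 68.4% of their genes, and 9.52% of AP-1 and 5.26% of KLF genes had a member. Of 26 FOX and GATA genes, 5 had a member (19.2%) and 1 a loss, and 2 had a member within 10 kb. FOXP1 had 3, at 2616, 22040 and 3746 bp from a TSS, with scores of 4.99 and 3.88, 4.47 and 3.70, and 5.14 and 3.43. FOXN3 had 2, and FOXO3, GATA3 and GATA6 had 1 each, at 34.5, 99.7 and 89.3 kb. Of 21 AP-1 genes, JUN had 1 member at 29.6 kb, 538 bp from an H3K27ac region present in all 4 libraries, and ATF7 had 1 at 7.14 kb. Of 19 KLF genes, KLF6 had 1, at 45.7 kb, with scores of 3.79 and 3.77, while 3 KLF genes had a loss. FOXP1 was the only one of these genes with more than 2 members.

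In Wnt signalling, 8 of 76 genes had a member (10.5%) and 8 had a loss, and 75% had some distal region without H3K27ac. Over all protein-coding genes 6.13% had a member and 52.1% some such region. The Wnt member count was 4 both within 10 kb of the TSS and with the stronger 50% of each list. No share over all genes is given for these settings, here or for the other lists. DKK1, a secreted Wnt inhibitor, had 2 members at 62.8 and 64.1 kb. ZNRF3, the ubiquitin ligase that removes Frizzled receptors, had 2 at 30.2 and 26.2 kb, and TLE4, a corepressor, had 2 at 28.3 and 4.05 kb, whose nearest H3K27ac regions were FR-only. Among receptor tyrosine kinase and MAPK genes, 8 of 71 had a member (11.3%) and 7 a loss, with 2 members in ALK. Some distal region without H3K27ac was present for 76.1% of this list. The count of genes with a member was 1 within 10 kb and 12 with the stronger 50% of each list. SEMA5A, with 2, was the only one of the 36 semaphorin, plexin, neuropilin and VEGF genes with more than 1. Of these genes, 3 had any member (8.33%, and 6 genes with the stronger 50% of each list), and 55.6% had some distal region without H3K27ac. Of 46 cadherin and adhesion genes 2 had a member (4.35%), of 24 Notch genes 2 (8.33%), and of 25 ABC transporter genes 2 (8%). Some distal region without H3K27ac was present for 47.8%, 70.8% and 72% of these lists. The ABC transporter genes with a member were ABCB1, the multidrug transporter, and ABCC9. The ABCB1 member lay 1.33 kb from a TSS and scored 3.71 and 5.47. It lay 535 bp, and the ABCC9 member 89 bp, from an H3K27ac region present in all 4 libraries. The counts of the AP-1, KLF, Notch, adhesion and ABC lists were 0 or 1 under both of these alternatives.

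Per chromosome, the highest share of the distal regions without H3K27ac that were members was 4.42% on chromosome 12. On chromosome 13 only 32 such regions were members (2.35%), while 103 were losses (7.58%). On chromosome Y 0 of 88 such regions were members, which allows a share of up to 3.41%, and 9 were losses (10.2%). DNA copy number, which can differ between a line and its derivative, was not measured here, and its part in these calls was not tested.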

How the data were processed

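H3K23su and H3K27ac CUT&Tag peaks were called in 8 libraries of HCT15 cells. The authors aligned reads to hg19 (Bowtie2), kept uniquely mapped pairs (SAMtools) and ran MACS2 on each library, per the labels and methods, and the labels also name HOMER 4.10. The deposited lists give each peak's position and its −log10 P value. They hold no read counts, so the depth behind each call is unknown, no counting interval on a peak could be given, and a missing peak means only that none passed the threshold. Spike-in DNA does not enter the lists. The labels do not say whether replicates came from separate cultures.

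Peaks of a mark were merged where they overlapped or touched, and 1 bp of overlap counted as presence. FR-only regions were in both HCT15-FR lists and no HCT15-Pa list, and Pa-only regions the reverse. Annotation came from GENCODE 44 on GRCh37. Motif cores were stretches of HOMER consensus sequences, cut at positions set by hand. Shares have exact Clopper-Pearson 95% intervals, and libraries were compared by two-sided exact permutation tests of 2 against 2.

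The members, gene lists and sets were chosen with earlier results of these data known, and 7 of the 9 library comparisons were added after the data were seen. Named were the 10 members whose weaker HCT15-FR peak ranked highest (chromosome 8 left out), the 10 genes and 10 runs with the most members, list genes with 2 or more members (1 or more for 5-FU, AP-1, FOX and GATA, and KLF lists), and the regions nearest the limits. Of the 4 strongest members, the sequence of 1 is not reported here. Names outside this rule were chosen after their values were seen, among them the TGF-beta and BMP genes and the ABC transporters. MEF2C was drawn for the same reason. The alternatives were peak strength, overlap, merging, distance, TSS set, margin, chromosomes, common minimum score, window, GC content and left-out libraries. The work used pysam 0.24.0, samtools 1.23.1, pandas 2.3.3, numpy 2.4.6, scipy 1.17.1 and matplotlib 3.10.9 in Python 3.11.15, and the region rule and core search were checked on simulated data.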

Additional observations from a re-analysis of the deposited data

How the results depend on the processing

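With the stronger 50% of each list, 802 regions met the rule, of which 104 were members, so most members did not meet it (weak H3K27ac and HCT15-Pa peaks were removed as well). Of these regions' nearest H3K27ac regions, 10.5% were FR-only and 3.26% Pa-only, and with protein-coding genes alone 73.2% of members were intronic. Leaving out 1 library in turn gave 1638 to 8913 regions, the highest counts without an HCT15-FR H3K23su library. The other 8 ways of drawing the set gave 1168 to 1680 regions. Of 122 alternative values, 79 stayed within their limits and 43 moved, most of the latter being core shares and gene-list counts. None reversed, but most of the 122 were counts or shares of 1 set, which have no direction to reverse. The limits were wide. A count of 2231 members against 1562 fell within them, as did 12 receptor tyrosine kinase and MAPK genes against 8.

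In the 9 library comparisons, each alternative kept the direction, and none left out an H3K27ac library. Since the groups did not overlap, leaving out 1 H3K23su library could not change the direction, and neither could the replicate block, which keeps the means. Leaving out 1 library changed the peak difference (HCT15-FR minus HCT15-Pa) from -2740.5 to -2387.5 peaks. With the replicate block, differences within replicate numbers gave the same means (-2564 peaks, -4.55 percentage points) and p = 0.5 by an exact sign-flip test, the smallest possible. The labels give only a shared number, and presence deviations of same-numbered libraries correlated at r = 0.00293 over 122500 regions.

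Read depth, signal and DNA copy number are not in the lists, and repeats were not annotated here. The members' low scores make absence in HCT15-Pa a statement about the calling threshold.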
